A study of Mus musculus with 192 samples.

Results

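The cells described here were 62 of 192 single bone marrow cells that the labels call LSK, for lineage-negative, Sca-1-positive and cKit-positive blood progenitors. They were the cells with a CD135 signal below the median of their library pool and a CD150 signal not among the pool's 24 highest, which leaves out the cells nearest to long-term stem cells and those with most CD135 (FLT3). In each pool they were split at their own median CD16/32 signal, which put 31 cells on the CD16/32 higher side (15 in pool 1 and 16 in pool 2) and 31 on the CD16/32 lower side (15 and 16). Both sides came from the marrow of C57BL/6 mice, which carried no allele or treatment that the labels name; the ages stated for the study's mice are 8 to 16 weeks. Cells with cKit were first enriched magnetically, and each cell was index-sorted, so that its antibody signals are recorded beside its mRNA counts. No animal is named, so each side counts as 1 sample. All values below describe these cells, no test was possible, and every interval is a 95% interval that covers counting error only.

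CD16 and CD32 are low-affinity receptors for the constant part of IgG, encoded by Fcgr3 and Fcgr2b, and the same antibody binds both. In mouse marrow a high CD16/32 signal is the textbook mark of granulocyte-monocyte progenitors, which lie downstream of LSK cells and have lost Sca-1. Such progenitors begin to transcribe the enzymes of the primary neutrophil granules, among them myeloperoxidase and the serine proteases, under ETS-family factors such as PU.1 and under C/EBP factors. Within LSK cells CD135-low CD150-low cells are usually described as multipotent progenitors with a myeloid bias.

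The 250 bases before the transcription start are printed for 4 granule genes because these genes stood high together in a few of the cells. The sequences are from RefSeq on GRCm38.p6, 5′ to 3′ on the gene's own strand, and capitals mark AGGAAGT or its reverse complement, an ETS-type motif searched on both strands and picked after the sequences had been read.
Mpo, chr11:87793534-87793783, plus strand: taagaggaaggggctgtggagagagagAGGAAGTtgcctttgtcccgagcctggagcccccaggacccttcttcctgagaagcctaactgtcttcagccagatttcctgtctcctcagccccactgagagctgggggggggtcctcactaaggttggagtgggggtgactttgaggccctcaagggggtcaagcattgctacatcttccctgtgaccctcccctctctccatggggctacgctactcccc
Prtn3, chr10:79879417-79879666, plus strand: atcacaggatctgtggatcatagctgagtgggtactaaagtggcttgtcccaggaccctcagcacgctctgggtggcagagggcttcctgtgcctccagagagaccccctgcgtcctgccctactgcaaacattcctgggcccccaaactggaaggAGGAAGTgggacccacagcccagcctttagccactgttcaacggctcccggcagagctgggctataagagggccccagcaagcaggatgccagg
Elane, chr10:79886062-79886311, plus strand: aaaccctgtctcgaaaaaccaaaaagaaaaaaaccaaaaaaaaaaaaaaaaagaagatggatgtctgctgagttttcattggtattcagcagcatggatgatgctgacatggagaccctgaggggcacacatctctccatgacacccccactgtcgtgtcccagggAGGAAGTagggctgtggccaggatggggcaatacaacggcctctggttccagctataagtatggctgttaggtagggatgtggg
Ctsg, chr14:56102575-56102824, minus strand: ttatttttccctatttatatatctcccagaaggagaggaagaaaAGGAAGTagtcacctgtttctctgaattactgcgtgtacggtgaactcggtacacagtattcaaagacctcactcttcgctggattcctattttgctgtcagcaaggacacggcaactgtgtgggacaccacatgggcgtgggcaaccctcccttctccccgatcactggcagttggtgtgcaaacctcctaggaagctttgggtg
Each of the 4 windows held 1 match, 223 bases before the RefSeq start of Mpo, 94 before that of Prtn3, 84 before that of Elane and 206 before that of Ctsg. Of all 32817 promoter windows of the same length, 7.69% held this motif. A C/EBP-type motif, TTNNGNAA on either strand, was in none of the 4 and in 36.8% of all windows. GENCODE M21 starts Mpo, Prtn3 and Elane upstream of the RefSeq start used here. A match is a description of the letters and not evidence of binding.

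The cells carried the mRNA of LSK cells. Kit, the gene of cKit, had a UMI (a distinct counted molecule) in 61 of the 62 cells, Cd34 in 59 and Ptprc, the gene of CD45, in 58. Ly6a, which encodes Sca-1, was found in 23. The macrophage gene Adgre1 had 3 UMIs in all. Gene UMIs came to 619443 on the higher side, where a cell had a median of 17798 (10498 to 41782), and to 501970 on the lower side, where the median was 15559 (3927 to 33929). The gap in depth was wider in pool 2, at medians of 18387.5 on the higher side and 13513 on the lower side. Levels are given as UMIs per 1000000 gene UMIs (CPM), which removes total depth but not the effect of depth on the share of cells with a UMI. Both pools used the same 96 cell indices and are told apart by the pool index.

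The split followed a continuous signal. The median CD16/32 signal was 913.941 (614.763 to 4385.98) on the higher side and 442.806 (71.7939 to 719.766) on the lower side, in arbitrary units. In pool 1 the nearest cells across the split stood at 742.374 and 719.766, and in pool 2 at 614.763 and 590.729. Of the cells split here, 9 in pool 1 and 4 in pool 2 had signals above 1000. The higher cells also had somewhat more cKit (median 7520.47, against 6574.42 on the lower side), CD11b (108.467, against 77.09) and forward scatter (134000, against 128000), with broad overlap in each. The Sca-1 medians were 1048.17 on the higher and 1073.27 on the lower side in pool 1, and 1742.25 and 1111.66 in pool 2. A CD127 signal above 2000 was recorded in 0 of the 31 higher and 4 of the 31 lower cells, a difference that touches the lymphoid, mast cell and cell cycle results further on.

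How many genes differed between the sides was counted by size, since no test was possible. A gene was called when it had at least 50 UMIs, no more than 20% of them in 1 cell, a ratio of at least 2-fold and the same direction in both pools. Of 3954 genes that could be called, 58 were higher (1.47%) and 37 lower (0.936%) in the CD16/32 higher cells. Among the 58, 21 were past 2-fold in each pool, 25 in pool 1 only and 12 in pool 2 only. Among the 37, the counts were 14, 16 and 7. When each cell was given equal weight, as the mean of the cells' CPM, the counts were 47 higher and 54 lower, so the balance of the directions depends on the scaling. Over all 10015 genes with at least 10 UMIs the median log2 ratio was 0.04, and 5318 were higher.

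Fcgr3, which encodes CD16, had 15 UMIs in the higher cells (24.2 CPM, 13.6 to 39.9) and 0 in the lower cells (up to 7.35 CPM). The UMIs lay in 6 of 31 higher cells, 4 in pool 1 and 2 in pool 2, and in 0 of 31 lower cells, which allows a share of up to 11.2% (exact Clopper-Pearson). Against the floor of 3 UMIs for the lower side the counted ratio is at least 4.05-fold. This bound depends on the floor, and the counting interval starts lower, at 1.54 on the log2 scale. At equal depth the shares were 4 of 30 and 0 of 24 cells. Of the 15 UMIs 13 lay in pool 1 and 7 in a single cell, without which the log2 value was 1.16. Without cells above 1000 the higher side had 2. Fcgr2b, the gene of CD32, had 8 and 4 UMIs, too few to tell the sides apart (log2 ratio 0.70, -1.20 to 2.88). Fcer1g, the signalling chain that CD16 needs to reach the cell surface, was at 56.5 CPM in the higher and 75.7 in the lower cells (log2 -0.42, -1.13 to 0.28). Ms4a2, a chain of the IgE receptor, had all of its 13 UMIs in 1 higher cell of pool 1. Of 9 Fc receptor genes listed, 4 had at least 10 UMIs, 3 higher and 1 lower, and the 1 that could be called was not. Most of the CD16/32 higher cells had no Fcgr3 UMI.

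Neutrophil granule genes had the highest median log2 ratio of the gene lists (1.52), and a few cells of pool 1 held much of the difference. The rank depended on genes held by 1 cell, without which the granule median was 0.49. Immediate early genes then stood at 0.997, colony-stimulating factor receptors at 0.597 and mast and basophil genes at 0.527. In pool 2 the granule median was 0.26, against 0.878 for colony-stimulating factor receptors. Mpo, the gene of the granule enzyme myeloperoxidase, had 484 UMIs in the higher and 49 in the lower cells. In CPM these were 781 (713 to 854) and 97.6 (72.2 to 129). This is an 8.00-fold ratio (log2 interval 2.57 to 3.46), with a log2 ratio of 3.77 in pool 1 and 1.25 in pool 2. Since 1 cell held 22.7% of its UMIs, Mpo could not be called. Per cell, Mpo ranged from 0 through a median of 3 to 121 UMIs on the higher side and from 0 through 1 to 9 on the lower side. The 2 sides overlapped, and 5 higher cells of pool 1 lay far above all others.

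These 5 cells had 118, 78, 35, 121 and 39 Mpo UMIs. Among the cells of that pool described here, they were 5 of the 8 with the highest CD16/32 signals. Elane, neutrophil elastase, had 108, 3, 16, 36 and 6 UMIs in them, and Ctsg, cathepsin G, had 21, 8, 8, 20 and 6. Hlf, a stem and progenitor transcription factor, had 1, 1, 1, 2 and 3 UMIs in the same cells, against medians of 12 over the higher cells and 10 over the lower cells. They are the 5 cells with most granule UMIs, picked after their values were seen, and their low Hlf is a description. The other 4 pool 1 cells with a signal above 1000 had 0 to 4 Mpo UMIs, so a high CD16/32 signal did not go with granule mRNA in every cell.

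Elane was higher over the sides as a whole, with 172 UMIs in the higher and 3 in the lower cells, but 1 cell held 61.7% of them and pool 2 had none. Ctsg had 74 and 2 UMIs (log2 4.91, 3.0 to 7.98), in 7 higher cells and 1 lower cell. Prtn3, the gene of proteinase 3, was spread more widely, with a UMI in 28 of 31 higher and 26 of 31 lower cells. Its level was 366 CPM (320.3 to 417) in the higher and 137 (107 to 174) in the lower cells, a log2 ratio of 1.41 (1.02 to 1.83). In pool 1 that ratio was 2.55 and in pool 2 it was 0.01, so Prtn3 met the call rule by its sum and was level in pool 2. Ms4a3, a membrane protein gene of granulocyte-monocyte progenitors, had 12 UMIs in 5 higher cells of pool 1 and 0 elsewhere.

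**Figure D1:**
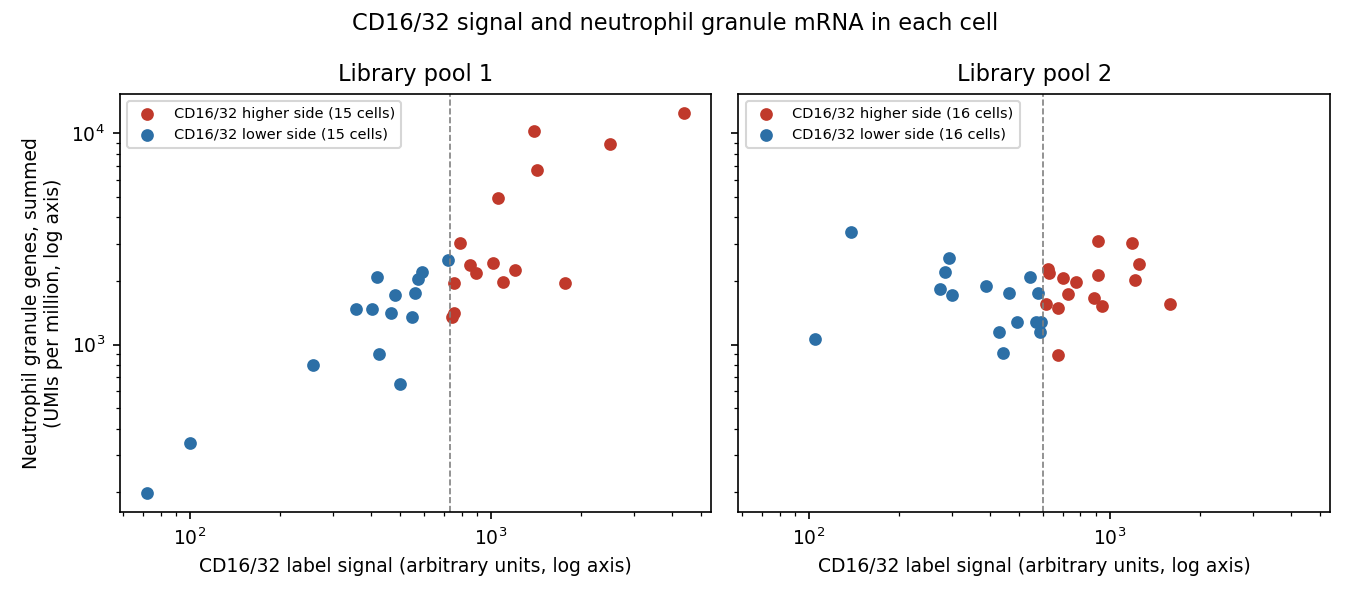
Summed CPM of the neutrophil granule genes (log axis) against the CD16/32 label signal in arbitrary units (log axis), 1 point per cell, in pool 1 (left) and pool 2 (right). Red points are the higher side, blue points the lower side and the dashed line the split. In pool 1 the level climbed with the signal (198 to 12500 CPM), and in pool 2 the sides overlapped (896 to 3080 CPM on the higher side, 914 to 3390 on the lower side).

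Of the 21 granule genes listed, 17 were in the counts and 12 had at least 10 UMIs. All of these 12 leaned higher, with a median log2 ratio of 1.52, 6 of them having over 20% of their UMIs in 1 cell. The other 6 had a median of 0.49. A gene present in 1 side only can pass the minimum through that side, so this count and those of the other lists are given as descriptions. Of the 6 that could be called, 2 were called, Prtn3 and Nkg7. Summed over the list the higher cells stood at 3260 CPM and the lower cells at 1480, and 5 cells held 36.8% of all its UMIs. The median was 1.96 in pool 1 and 0.26 in pool 2. Across cells the rank correlation of CD16/32 signal and summed granule level was 0.79 in pool 1 (30 cells) and 0.15 in pool 2 (32 cells). Without the cells above 1000 it was 0.67 (21 cells) and 0.03 (28 cells). The correlations are descriptions over cells of the same library, and granule level and depth had a rank correlation of 0.06 in pool 1 and 0.00 in pool 2.

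The cells of each pool were also ranked by CD16/32 into tertiles of 20, 21 and 21 cells over both pools. From the lowest through the middle to the highest tertile, summed granule genes stood at 1350, 1800 and 3860 CPM, and Mpo had 30, 55 and 448 UMIs. In pool 1 the granule sum was 1040, 1980 and 5700 CPM. In pool 2 it was 1750, 1630 and 2050 CPM, with no step up between the lowest and middle tertiles.

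The genes responded unequally when the cells with a signal above 1000 were left out of the higher side (18 higher and 31 lower cells). Mpo had a log2 ratio of 0.82 (0.24 to 1.40) without them and Prtn3 of 0.52 (0.002 to 1.03), and Elane had 0 UMIs left against 3 in the lower cells. Nkg7, by contrast, kept its ratio, at 1.67 (0.74 to 2.67) without them and 1.62 (0.78 to 2.55) with them. Bub1b, Jun, Cenpc1 and Slc22a3 had ratios from 1.62 to 2.01 without these cells, against 1.5 to 1.95 with them. Ap3s1 had 0.11 without them and 1.77 with them, Tent5a 0.89 and 1.56, and Cebpa 0.63 (-0.72 to 1.97) and 1.52. Rab44 had 1.87 without them and 2.98 with them, and was then seen in 3 of 18 higher and 8 of 31 lower cells. Among cells above the median cKit, Mpo had 0.735 (72 and 42 UMIs), against 4.14 among those below it, and Ctsg (8 and 12 UMIs), Cebpa (9 and 11) and Car1 (16 and 12) changed direction.

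**Figure D2:**
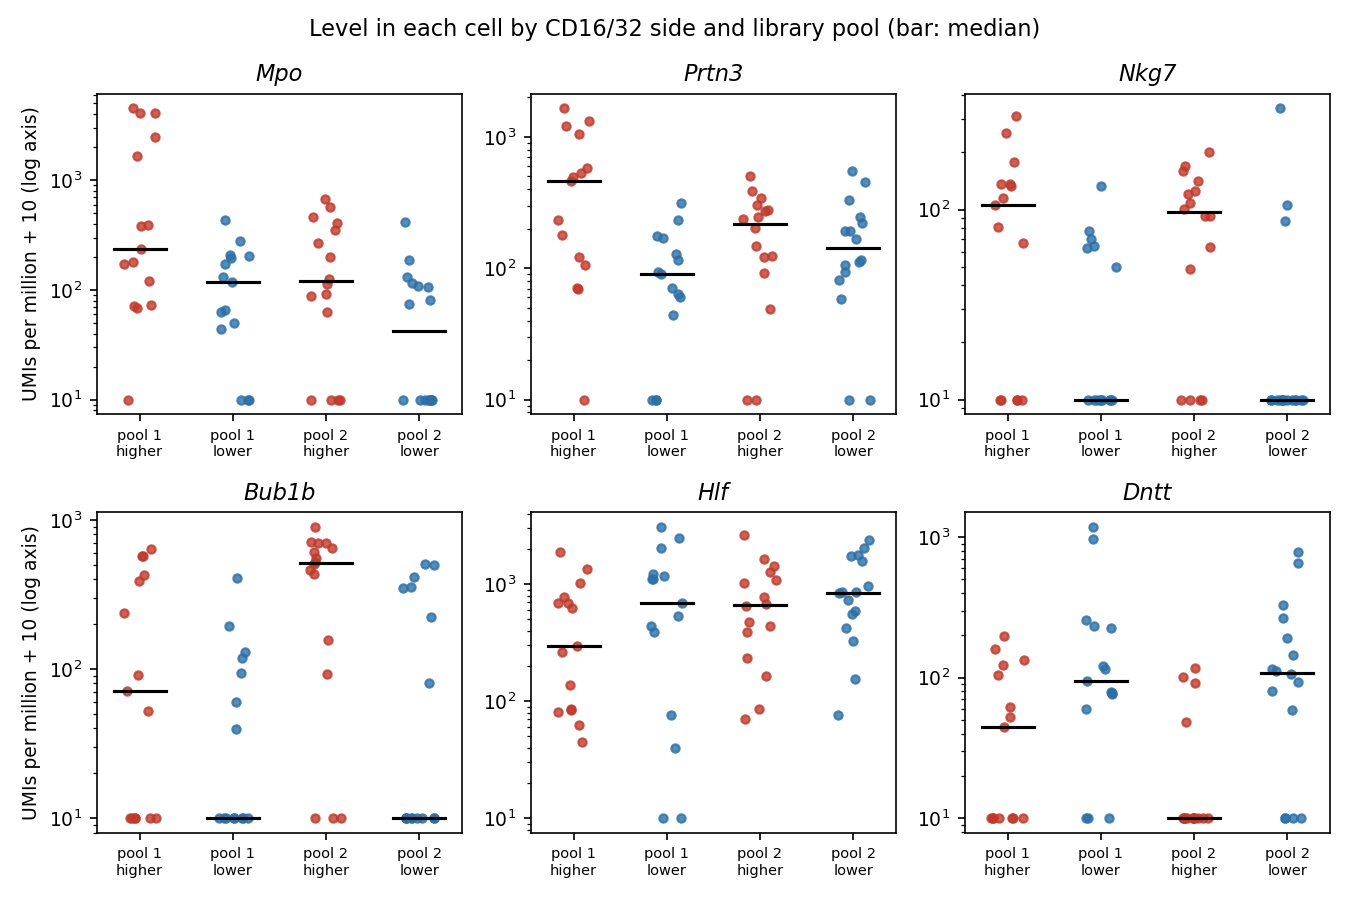
Level of 6 genes in each cell, as CPM plus 10 on a log axis, for the higher side (red) and the lower side (blue) of each pool; bars are medians and cells without a UMI lie at 10. Mpo and Prtn3 stand out in a few higher cells of pool 1, Nkg7 in many higher cells of both pools, Bub1b in many higher cells of pool 2, and Dntt in a few lower cells.

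Nkg7, a granule membrane protein of cytotoxic and myeloid cells, was called, with a difference in each pool. It had 57 UMIs in the higher and 15 in the lower cells, or 92.0 CPM (69.7 to 119) and 29.9 CPM (16.7 to 49.3). Its log2 ratio was 1.98 in pool 1 and 1.25 in pool 2, and the sides overlapped. At least 1 UMI was seen in 22 of 31 higher and 9 of 31 lower cells. At equal depth, with each cell thinned to 12147 UMIs, it was seen in 21 of 30 higher and 9 of 24 lower cells, and the log2 ratio was 0.86, from 34 and 15 UMIs. The median cell held 2 UMIs on the higher side and 0 on the lower side.

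Genes were named as the 12 in each direction whose counting intervals lay farthest from 0, and Rab44 came first. It encodes a large Rab GTPase that in mouse mast cells and osteoclasts acts on granules and lysosomes. Rab44 had 78 UMIs in the higher and 8 in the lower cells, 7.90-fold apart (log2 2.98, 1.93 to 4.24), with 3.44 in pool 1 and 1.77 in pool 2. No lower cell had more than 1 UMI, while the highest higher cell had 15. The ratio in pool 2 rests on 10 against 2 UMIs.

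Bub1b, which encodes the spindle checkpoint kinase BubR1, had 225 UMIs in the higher and 56 in the lower cells, or 363 CPM (317 to 414) and 112 CPM (84.3 to 145). The log2 ratio was 1.70 (1.28 to 2.15), 1.91 in pool 1 and 1.46 in pool 2. In pool 2 the median cell held 9 UMIs on the higher side and 0 on the lower side. In pool 1 the medians were 1 and 0, with a UMI in 9 of 15 higher and 7 of 15 lower cells. A single higher cell there held 26 of the 63 UMIs of the higher side. The list that holds Bub1b, of 24 G2/M genes, had 16 higher and 8 lower. The 3 with most UMIs after Bub1b were not higher. Smc4, a condensin gene, had a log2 ratio of -0.02. Top2a had -0.22 (-0.60 to 0.16) and Mki67 -0.51 (-0.97 to -0.06), and Top2a and Mki67 each had over 20% of their UMIs in 1 cell.

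Slc22a3, an organic cation transporter gene, was at 158 CPM in the higher and 55.8 CPM in the lower cells (log2 interval 0.89 to 2.17), with a log2 ratio of 1.86 in pool 1 and 1.18 in pool 2. Cenpc1, a centromere protein gene, had 43 and 9 UMIs (log2 1.95, 0.90 to 3.18). The mitochondrial transport GTPase gene Rhot1 had 49 and 11 (1.85, 0.89 to 2.95), the poly(A) polymerase gene Tent5a 73 and 20 (1.56, 0.83 to 2.36) and the adaptor complex gene Ap3s1 42 and 10 (1.77, 0.75 to 2.93). These genes belong to no common list and were above 1 on the log2 scale in both pools. The AP-1 gene Jun was also even between pools, at 1.71 in pool 1 and 1.63 in pool 2, from 91 UMIs in the higher and 23 in the lower cells. Calr, a calcium-binding chaperone of the endoplasmic reticulum, was the most abundant of the 12. It stood at 717 CPM in the higher and 373 in the lower cells, with a log2 ratio of 1.54 in pool 1 and 0.27 in pool 2, and missed the 2-fold line.

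**Figure D3:**
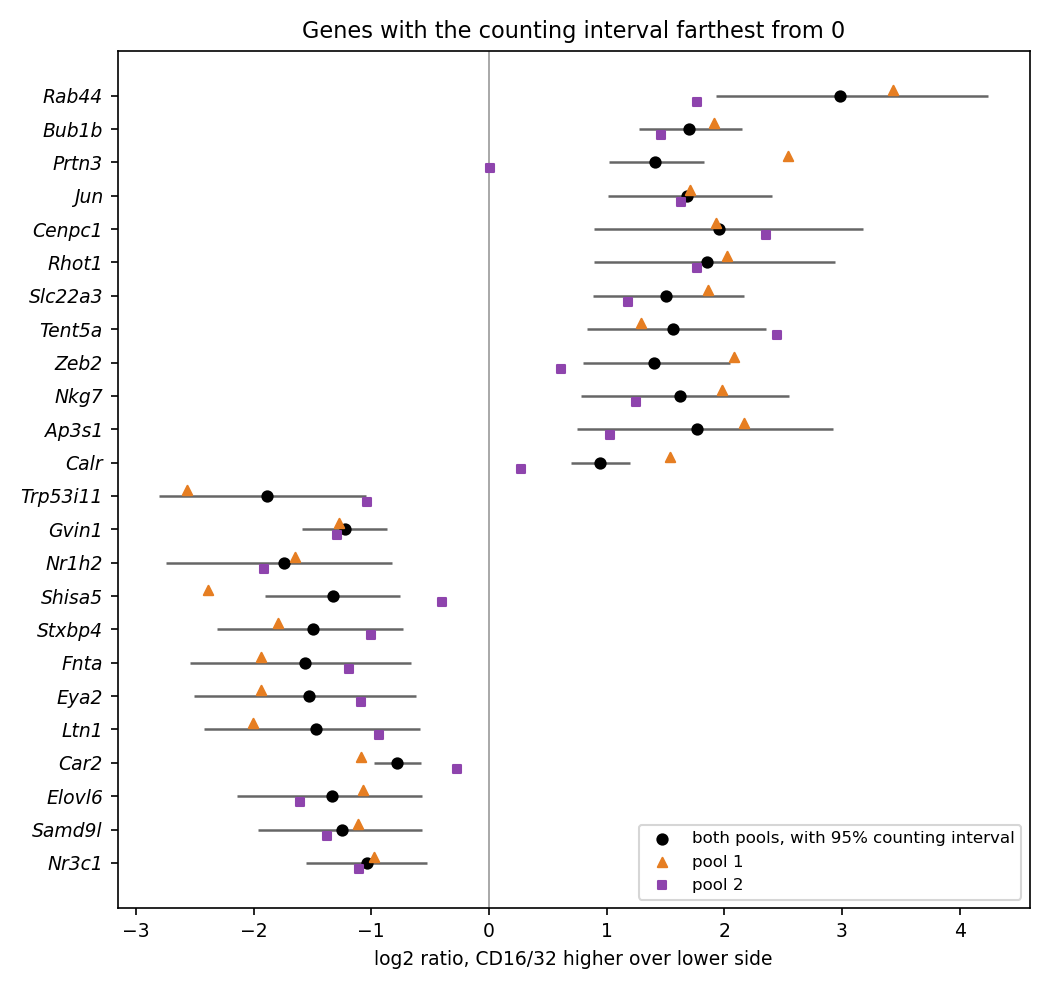
Log2 ratio of the CD16/32 higher over the lower side for the 12 genes in each direction with the counting interval farthest from 0; black points with lines are both pools with 95% intervals, triangles pool 1 and squares pool 2. The naming rule puts both pool values on the side of the sum; Prtn3 (0.01) and Calr (0.27) are near 0 in pool 2.

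Myeloid transcription factors were mixed. Of 13 listed, 10 had at least 10 UMIs, 7 of them higher and 3 lower, and 2 of the 5 that could be called were called, both higher. Cebpa, the C/EBP factor needed for granulocyte-monocyte progenitors, had 39 and 11 UMIs (log2 1.52, 0.53 to 2.64), with 2.74 in pool 1 and 0.10 in pool 2. Zeb2, a zinc finger repressor, had 98 and 30 UMIs (1.40, 0.80 to 2.05), with 2.08 in pool 1 and 0.62 in pool 2. Irf8, which drives the monocyte and dendritic branch, had 27 UMIs in the higher and 6 in the lower cells, of which 21 and 1 were in pool 2. Spi1, the gene of PU.1, did not separate the sides at 37 and 38 UMIs (-0.34, -1.03 to 0.35). Gfi1, a repressor needed for the neutrophil branch, had 19 and 16 UMIs, with 2.05 in pool 1 and -1.67 in pool 2.

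Receptors for colony-stimulating factors and related cytokines leaned higher. Of 9 listed, 6 had at least 10 UMIs and all 6 leaned higher (median log2 0.81, with 0.50 in pool 1 and 0.88 in pool 2); none was called, with 1 that could be. Csf3r, the G-CSF receptor, had 30 and 12 UMIs (1.02, 0.01 to 2.12), in 17 of 31 higher and 8 of 31 lower cells. Csf1r, the M-CSF receptor, had 11 UMIs in 6 higher cells and 0 in the lower cells. It passed the minimum of 10 UMIs through the higher side alone, so the count of 6 is a description. The GM-CSF receptor chain gene Csf2ra had 42 and 25 UMIs (0.45, -0.30 to 1.22). Among cells above the median cKit, 2 measured receptor genes leaned higher and 2 lower (median 0.02). Above the median Sca-1 the list median was -0.414.

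Transcripts of the mast and basophil branch stood higher with CD16/32 in pool 1 and pointed both ways in pool 2. The 5 measured of 15 listed all leaned higher (median 1.22, 2.05 in pool 1 and 0.02 in pool 2). Cpa3, mast cell carboxypeptidase, had 148 and 63 UMIs, with a log2 ratio of 3.49 in pool 1 and -0.58 in pool 2. Slc18a2, the vesicle transporter of monoamines such as histamine, had 66 and 23 (1.22, 0.51 to 1.97), with 0.98 in pool 1 and 1.68 in pool 2. Hdc, which makes histamine, had 29 and 1 UMIs. A single higher cell of pool 1 had 42 Cpa3 UMIs together with 78 of Mpo, and a single lower cell of pool 2, with a CD127 signal above 2000, had 45 with 0 of Mpo. Without that lower cell the Cpa3 log2 ratio was 2.68, against 0.93 with it.

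Erythroid genes stood lower in the CD16/32 higher cells, and again a few cells of pool 1 held much of the difference. Of 21 listed, 12 had at least 10 UMIs, 11 of them lower and 1 higher. Their median log2 ratio was -2.13, which was -2.71 for pool 1 and -0.20 for pool 2. In 9 of the 12, 1 cell held over 20% of the UMIs, and the other 3 had a median of -0.78. Of the 3 that could be called, the transferrin receptor gene Tfrc was called lower, with 24 UMIs in the higher and 46 in the lower cells (-1.24, -2.02 to -0.50). In pool 2 it had 8 and 10 UMIs. Without its top cell, a lower cell, the Tfrc log2 ratio was -0.81, under the 2-fold line. The 2 lower cells of pool 1 with the lowest CD16/32 signals had 9 and 13 Tfrc UMIs. They stood at 7379 and 9952 CPM of summed erythroid genes, and the most in any higher cell was 2299.

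Car1, the erythroid carbonic anhydrase, had 27 UMIs in the higher and 52 in the lower cells (-1.25, -1.98 to -0.55). A single lower cell held 33 of them, and without it the log2 ratio was 0.16. In pool 1 the counts were 2 and 37, and in pool 2 they were 25 and 15, so the pools pointed in opposite directions. Car2, the more widely used isozyme, had 355 and 493 UMIs (-0.78, -0.98 to -0.58), with -1.09 in pool 1 and -0.27 in pool 2, and did not reach 2-fold. Without its top cell the log2 ratio was -0.50. Across the tertiles of CD16/32, from lowest to highest, summed erythroid genes stood at 1820, 1070 and 640 CPM.

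Stem cell genes were modestly lower in the higher cells. Of 23 listed, 14 had at least 10 UMIs, 12 lower and 2 higher, and the median was -0.67 (pool 1 -0.67, pool 2 -0.46). Among the 10 that could be called, 1 was called lower, Mycn. Hlf was at 567 CPM in the higher and 841 CPM in the lower cells (-0.57, -0.78 to -0.36), and the membrane protein gene Ifitm1 at 232 and 394 CPM (-0.76, -1.08 to -0.45). Ly6a had 14 and 32 UMIs (log2 interval -2.52 to -0.55), lower in both pools, while the Sca-1 protein signal was close between the sides in pool 1 and higher on the higher side in pool 2. Angpt1, a stem cell ligand gene, went the other way (0.34, 0.12 to 0.57), with -0.56 in pool 1 and 0.84 in pool 2. When the cells above 1000 were left out of the higher side, the Hlf ratio was -0.02 (-0.25 to 0.20) and the list median -0.32. With a new split without these cells the list median was -0.137. With CD150 not among the 48 highest it was -0.00436, close to level, although its sign held in 19 of 19 alternatives.

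Lymphoid priming genes were mostly lower, led by Dntt, which adds untemplated bases at antigen receptor joints. Of 22 listed, 16 had at least 10 UMIs, 11 lower and 5 higher (median -0.49), and none of the 9 that could be called was called. Dntt had 22 UMIs in the higher and 119 in the lower cells (-2.74, -3.47 to -2.07), with -2.41 in pool 1 and -3.17 in pool 2, and 1 lower cell held 28.4% of them. At least 1 Dntt UMI was seen in 12 of 31 higher and 24 of 31 lower cells. The 4 cells with a CD127 signal above 2000 were all on the lower side, and when such cells were left out and the rest split anew, Dntt had 20 and 50 UMIs (-1.72, -2.55 to -0.95). Ighm, the IgM heavy chain gene, had 30 and 73 UMIs with those cells and 28 and 20 without them. Flt3, the gene of CD135, had 103 and 115 UMIs (-0.46, -0.86 to -0.07), while the CD135 signal itself had medians of 262.657 and 341.158 in pool 1 and of 430.531 and 351.788 in pool 2, in opposite directions.

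Genes of the B lineage were at 33.9 CPM in the higher and 396 in the lower cells, but 1 lower cell of pool 1 with a high CD127 signal held 87.3% of the UMIs. The T, ILC and NK genes stood at 54.9 and 161 CPM, and 2 CD127-high lower cells of pool 2 held 38.3% of their UMIs. The 11 macrophage genes in the counts had 30 and 14 UMIs in all, and none reached 10.

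Dach1, a transcriptional regulator whose loss the series title ties to lymphoid priming, was slightly higher with CD16/32. It had 98 UMIs in the higher and 53 in the lower cells, or 158 CPM and 106 CPM, a log2 ratio of 0.58 (0.09 to 1.09) with 0.69 in pool 1 and 0.74 in pool 2. It was seen in 28 of 31 higher and 14 of 31 lower cells, and at equal depth in 21 of 30 and 12 of 24. A single lower cell held 19 of the UMIs, and without it the log2 ratio was 1.15. The ratio was 0.18 (-0.45 to 0.81) without the cells above 1000 on the higher side.

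**Figure D4:**
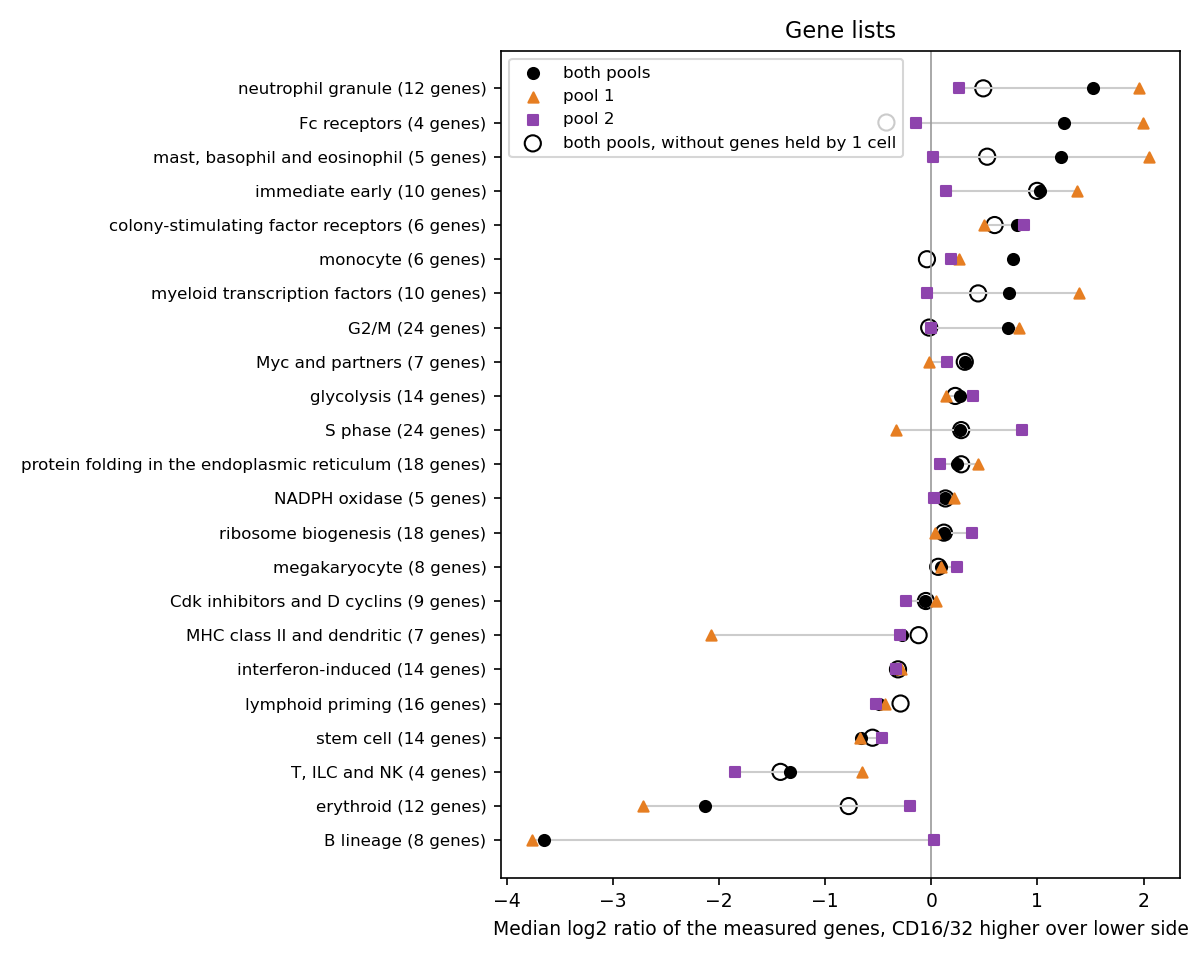
Median log2 ratio of the CD16/32 higher over the lower side for each gene list with at least 1 measured gene; black points are both pools, triangles pool 1, squares pool 2 and open circles both pools without genes held by 1 cell. Neutrophil granule genes are at the top (1.52) and B lineage genes at the bottom (-3.65), and for most of the wide lists the pools lie far apart.

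Glycolysis genes leaned higher in 13 of 14 (median 0.27), chaperones of the endoplasmic reticulum in 14 of 18 (0.24) and ribosome biogenesis genes in 12 of 18 (0.12). Of 14 measured interferon-induced genes 11 leaned lower (-0.34), and none was called. Gvin1, a very large GTPase gene outside that list, was called lower, at 163 CPM in the higher and 380.5 in the lower cells (-1.22, -1.59 to -0.87). S phase genes had a median of 0.27, with -0.33 in pool 1 and 0.85 in pool 2, and 2 of 16 were called higher. G2/M genes had 0.72, but 21 of 24 were held by single cells and the other 3 had a median of -0.02. Their sign held in 12 of 19 alternatives, from -1.89 in cells below the median cKit to 2.42 in cells above it. When the CD127-high cells were left out and the rest split anew, 21 of 23 G2/M genes leaned higher (median 1.41) and 21 of 24 S phase genes (0.80). The 4 CD127-high cells of the lower side were unlike each other. Their summed G2/M genes stood at 5659, 321.4, 4279 and 199.3 CPM, and their S phase genes at 7250, 3149, 7260 and 730.8 CPM. Why the medians moved was not tested. The G2/M list turned lower without the cells of CD16/32 above 1000. When these were left out of the higher side, 16 of 18 measured G2/M genes leaned lower (median -0.91). With a new split it was 14 of 18 (-0.81). A single higher cell of pool 1, with a CD16/32 signal above 1000, held 32.0% of the G2/M UMIs. Immediate early genes had a median of 1.02, with 1.37 in pool 1 and 0.14 in pool 2, and 1 cell held 20.9% of their UMIs. The medians were 0.13 for NADPH oxidase genes, 0.09 for megakaryocyte genes, -0.06 for D cyclins and Cdk inhibitors and 0.32 for Myc and its partners. MHC class II and dendritic genes had -0.28, with -2.07 in pool 1 and -0.29 in pool 2. The monocyte list had 0.77 from 6 genes, of which 3 leaned lower.

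The other genes lower in the CD16/32 higher cells by the naming rule shared no list. Trp53i11, a p53-induced gene, had 16 UMIs in the higher and 48 in the lower cells (-1.89, -2.80 to -1.05), and Nr1h2, the liver X receptor beta gene, had 14 and 38 (-1.74, -2.74 to -0.83). Nr3c1, the glucocorticoid receptor gene, had 53 and 88 UMIs (-1.03, -1.56 to -0.53) and was almost equal in the pools at -0.98 and -1.11. Shisa5, Stxbp4, Fnta, Eya2, Ltn1, Elovl6 and Samd9l ranged from -1.57 to -1.25. Of these, Stxbp4 and Eya2 turned higher, at 0.20 and 0.17, when the cells above 1000 were left out and the rest split anew.

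The same split was made in the other LSK cells to see where the CD135-low CD150-not-high cells differ. Among 96 cells with CD135 above the median (48 on each side) Mpo had a log2 ratio of 0.77 (0.41 to 1.13) and Prtn3 of 1.35 (0.95 to 1.78), and 8 of 9 measured granule genes leaned higher (median 0.44). Jun pointed the other way there, at -1.14 (-1.66 to -0.64), as did Hlf at 0.39 (0.21 to 0.57), and Dach1 had 1.63 (0.95 to 2.35). Among the CD135-low cells with CD150 among the 24 highest (16 on each side), Mpo had 1.14 (0.35 to 1.98), with -0.69 in pool 1 and 3.68 in pool 2 and 36.9% of its UMIs in 1 cell, and Car1 -4.89 (-5.60 to -4.27), from 21 and 611 UMIs. Bub1b and Slc22a3, both past 1 here, were at 0.29 and -0.02 in the CD135-high and 0.01 and 0.09 in the CD150-high cells. Whether these ratios differ between the sets of cells could not be tested with 1 sample.

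**Figure D5:**
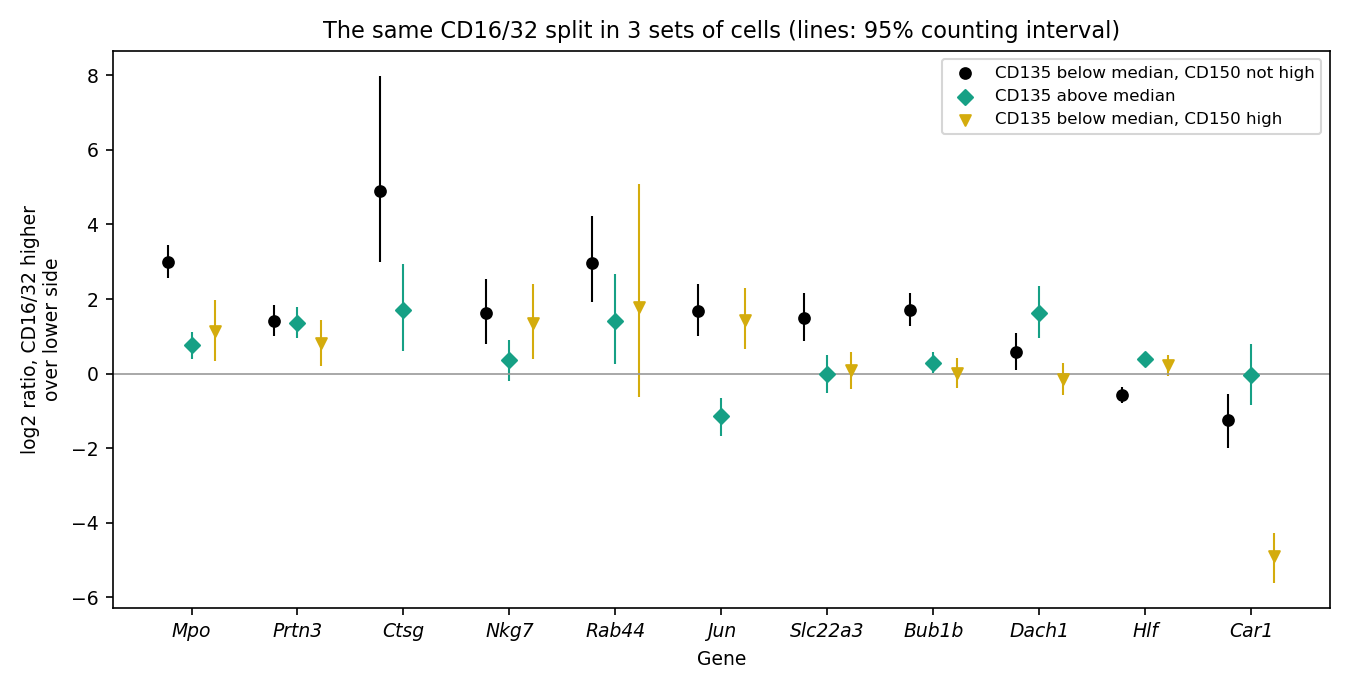
Log2 ratio of the CD16/32 higher over the lower side for 11 genes in 3 sets of LSK cells, with 95% counting intervals as lines; circles are the CD135-low CD150-not-high cells, diamonds the CD135-high and triangles the CD135-low CD150-high cells, and Ctsg is left out of the last for its 3 UMIs. The points of Mpo, Prtn3, Nkg7 and Rab44, for both pools together, lie above 0 in all 3 sets, with the interval reaching 0 for Nkg7 in the CD135-high and for Rab44 in the CD150-high cells, while Jun and Hlf change sides and Car1 is lowest in the CD150-high cells (-4.89).

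Mpo lies on chromosome 11 (87793581 to 87804413, plus strand), Prtn3 and Elane next to each other on chromosome 10 (79874476 to 79883174 and 79886247 to 79888215, plus strand) and Ctsg on chromosome 14 (56099881 to 56102574, minus strand), by GENCODE M21 on GRCm38. Nkg7 is on chromosome 7 (43437073 to 43438249), Rab44 on chromosome 17 (29114145 to 29148980) and Bub1b on chromosome 2 (118598211 to 118641591), all on the plus strand. Exons of Prtn3, Jun, Slc22a3, Zeb2, Elovl6, Mpo, Fcgr2b, Slc18a2 and Angpt1 overlap an exon of another gene on the opposite strand. Whether counting used the strand is not given in the sources used here, so reads of such partners cannot be told apart.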

How the data were processed

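The authors deposited raw UMI counts for each gene in each cell; that they are whole and not normalized was checked on the values. Per the labels' protocols, single cells were sorted into plates, primed on the poly(A) tail with a cell index and a UMI of 6 bases (an adapted CEL-seq2 protocol) and pooled after first-strand synthesis. The sources used here do not give the aligner, the counter or the UMI rule. The submitters' processing notes name GRCh38, a human build, although the gene identifiers are mouse, so the build is not known. Places and exon overlaps come from GENCODE M21 (GRCm38), matched by identifier. There were 20764 genes, 234 of them without a symbol, and 71 spike-ins, which stayed out of the totals.

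Label signals were ranked in each library pool (first index of the title). Then 1 cell with under 20% of its pool's median UMIs was dropped, which was not among the 62. Counts were summed per side and divided by all gene UMIs. Ratios have exact conditional binomial and sums exact Poisson intervals, and shares exact Clopper-Pearson ones. A side with no UMI was set at a floor of 3 for the side. At equal depth each cell was thinned to 12147 UMIs, which left out 1 higher and 7 lower cells. Doublets were not called, as cells were sorted singly.

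The 12 genes per direction were taken among those with at least 50 UMIs, 1 sign in both pools, no cell above 20% and no predicted, pseudogene or ribosomal protein symbol. Also named were Fcgr3, Mpo, Ctsg, Prtn3, Car1, genes of the label proteins, Dach1, up to 4 members with most UMIs of each list described, and measured Fc receptor, granule and erythroid genes. Cebpa, Csf1r, Dntt, Ighm, Mycn and Gfi1 were named after their values were seen. The value given for a list is the median over members with at least 10 UMIs; where both sides of a pool were at or under the floor, the pool ratio was set to 0. The 24 lists (369 entries), the members and the rules were chosen with earlier results of these data known. The ratio and the call rule were tested on simulated data with counting error only. The simulated cells differed in depth and side alone, so the test does not cover variation between cells or genes held by 1 cell. RefSeq promoters matched 105 of 131 named genes by symbol. Python 3.11.15, pandas 2.3.3, numpy 2.4.6, scipy 1.17.1 and matplotlib 3.10.9 were used. Alternatives changed the cell filter, the scaling, the split, the gate, the thresholds and the pools. Some genes are not reported here.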

Additional observations from a re-analysis of the deposited data

How the results depend on the processing

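The share of genes called moved with the cells and UMIs that could enter. It was 1.47% higher and 0.936% lower (58 and 37 genes of 3954). Counts beyond 1.5 times of these were as follows. Highest against lowest tertile gave 57 higher and 22 lower (0.794%). CD150 not among the 48 highest gave 33 and 11 (1.27% and 0.422%), and CD135 in the lowest tertile 30 and 19 (1.40% and 0.885%). Pool 1 alone gave 29 and 23 (1.56% and 1.24%), pool 2 alone 27 and 22 (1.42% and 1.16%) and thinned cells 26 and 21 (1.14% and 0.919%). Cells above the median cKit gave 29 and 18 (1.51% and 0.935%) and those below it 28 and 12 (1.68% and 0.72%). Cells above the median Sca-1 gave 29 and 21 (1.73% and 1.25%) and those below it 24 and 13 (1.25% and 0.677%). A minimum of 20 UMIs gave 3.75% and 2.76% of 7493 genes, a minimum of 100 gave 11 and 6 genes (0.587% and 0.32%), and 1.5-fold gave 7.18% and 4.45% of 3954.

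Both settings on cells with CD16/32 above 1000 were chosen after seeing the data. With a new split (24 cells a side) 36 and 13 genes were called (1.25% and 0.451%), and with the same lower side 26 higher (0.886%). Of the 58 and 37 genes, 8 and 7 were called again in thinned cells, 2 and 5 in pool 1 alone, 9 and 3 in pool 2 alone, 1 and 2 below the median cKit, 9 and 1 with the new split, and 29 and 26 with equal weight for each cell; fewer genes could be called in all of these but the last.

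The granule median of 1.52 kept its sign in 19 of 19 alternatives. It was 0.47 in pool 2 alone (members with 10 UMIs there), 0.30 above the median cKit, 0.54 above the median Sca-1, 0.57 and 0.52 without cells above 1000 (new split, same lower side), and 0.49 without genes held by single cells. The erythroid median of -2.13 also kept its sign, at -0.043 in pool 2 alone and -0.45 above the median Sca-1.

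The Fc receptor median of 1.25 turned to -0.34 with CD150 not among the 48 highest, -1.11 in pool 2 alone, -0.0431 above the median cKit, -1.10 above the median Sca-1, -1.44 and -1.62 without cells above 1000, and -0.42 at 50 UMIs or without genes held by single cells. The immediate early median was -0.14 above the median cKit. Above the median cKit, Zeb2 was -0.0431, Ctsg -0.63, Cebpa -0.33 and Car1 0.37, and Stxbp4 was 0.20 and Eya2 0.17 without cells above 1000 and a new split. The cause of these shifts was not tested.

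No paired analysis was possible because all cells form 1 group and no animal is named. Depth limits genes such as Fcgr3 and Fcgr2b, with 15 and 12 UMIs, and the intervals leave out variation between cells and animals.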

Other observations

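Within the gate, the CD16/32 signal and the summed lymphoid priming level had a rank correlation of -0.02 (pool 1) and -0.14 (pool 2). Leaving out cells above 1000 gave 0.48 and -0.17. The G2/M sum and the signal had rank correlations of 0.12 in pool 1 and 0.44 in pool 2. In pool 2 the signal also went with depth (0.39), against 0.17 in pool 1.

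Among the CD135-high cells, 19 of 21 measured lymphoid priming genes leaned lower on the CD16/32 higher side, at 3450 CPM there and 5440 CPM on the lower side, and 7 of 7 measured macrophage genes leaned higher, at 141 and 25.7 CPM. Among the CD150-high CD135-low cells, 24 of 24 S phase genes leaned higher, at 4380 CPM on the higher and 1890 CPM on the lower side.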
